A study of Brassica rapa subsp. pekinensis with 2 samples.

Results

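DOGT1 and OPR1 encode enzymes that modify plant hormones or hormone-like oxylipins. The genes described here are 2 paired with DOGT1 and called its copies, Bra023081 and Bra005241, and 1 paired with OPR1, Bra008271. The deposited expression table held 41019 genes. These 3 were chosen because the authors' pathway table pairs them with these symbols and because their values were higher in sterile buds. That direction is therefore a description and not a finding. The pairing was not checked by sequence here. The plants were Chinese cabbage, Brassica rapa subsp. pekinensis, of the AB line AB02. An AB line yields both male fertile and male sterile plants, and here the sterility is genic and set by multiple alleles. The fertile group was 1 library of buds from fertile plants and the sterile group was 1 library of buds from sterile plants. Both came from vernalized seed sown in a greenhouse. The bud stage and the number of plants behind each library are not given in the sources used here. With 1 library per group, differences could not be checked against replicates, and no p-value of a group difference was computed.

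In Arabidopsis, DOGT1 (AT2G36800) is a glucosyltransferase of the UGT73C group. It adds glucose to brassinosteroids, steroid hormones of growth and fertility, which lowers their activity. It also accepts the cytokinin zeatin and the fungal toxin deoxynivalenol, from which its name is taken. OPR1 (AT1G76680) is an oxophytodienoate reductase, a flavin enzyme that reduces oxylipins made from linolenic acid. A related Arabidopsis enzyme, OPR3, carries out the reduction in jasmonate synthesis, and plants without it are male sterile. OPR3 was paired with no identifier here, and its level was not analysed here.

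All 3 genes lay far above the diagonal of equal expression. Bra005241 (DOGT1) stood at 40.9 RPKM in the fertile library and at 217 RPKM in the sterile library, where RPKM is the number of reads scaled to gene length and to the library total. These levels stood for 110 and 507 reads, with 95% Poisson counting intervals of 33.6 to 49.3 RPKM in fertile, and 198 to 237 RPKM in sterile buds. The level in sterile buds was 5.3-fold higher (counting interval 4.31 to 6.58). This copy was the most abundant of the 3 genes in both libraries and had the smallest fold. Bra023081, the other DOGT1 copy, had 10.4 RPKM from 28 reads in fertile buds and 88.1 RPKM from 206 reads in sterile buds. Its counting intervals were 6.92 to 15.1 RPKM in fertile, and 76.5 to 101 RPKM in sterile buds. The level was 8.46-fold higher in sterile buds (counting interval 5.69 to 13), the largest fold of the 3 genes and the least precise one, since only 28 reads stood behind its fertile value. Bra008271 (OPR1) had 23.2 RPKM from 47 reads in fertile buds and 159 RPKM from 281 reads in sterile buds. The intervals were 17 to 30.8 RPKM in fertile, and 141 to 179 RPKM in sterile buds, and the level was 6.88-fold higher in sterile buds (counting interval 5.04 to 9.58). For each of the 3 genes the intervals of the libraries did not overlap. That follows largely from their choice as called genes higher in sterile buds, and the share of all genes with this trait was not computed. Within each library the intervals of the 3 genes did not overlap either, and their order was the same in both. The intervals compare these libraries and cover counting error only.

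**Figure D1:**
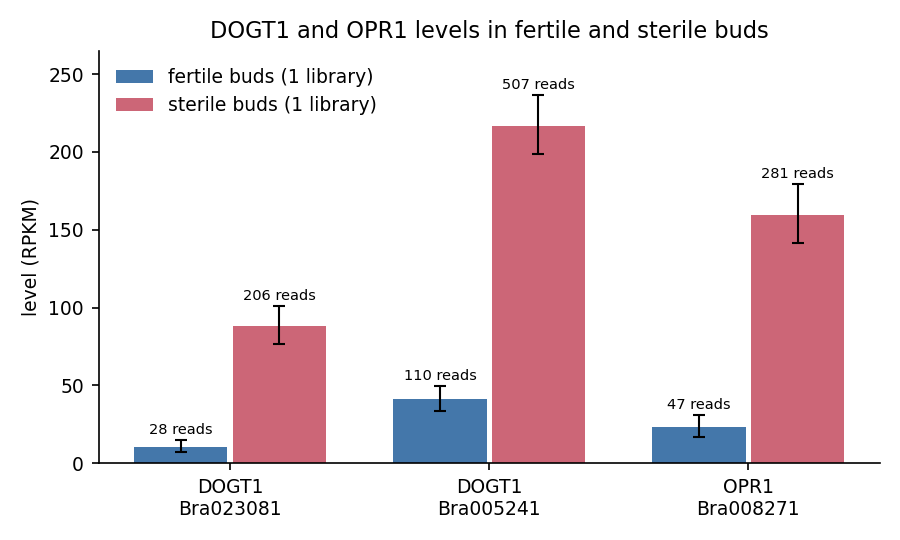
Level in RPKM of both DOGT1 copies and of OPR1 in the fertile (blue) and the sterile (red) library, with 95% Poisson counting intervals as bars and the number of reads printed above. The order of the genes was the same in both libraries, with Bra005241 highest at 40.9 and 217 RPKM, Bra008271 between at 23.2 and 159 RPKM, and Bra023081 lowest at 10.4 and 88.1 RPKM.

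The read numbers of these 3 genes were exact and not minima. The smallest whole reads that gave both RPKM values were checked against the p-values of the authors' deposited table, which varied with the RPKM ratio and with the product of the reads of both libraries. On that measure the reads of Bra023081, Bra005241 and Bra008271 came out at 1 times the smallest numbers. The reads and RPKM values together implied a gene length of 1491 bp for Bra023081 and also 1491 bp for Bra005241, and 1125 bp for Bra008271. The 2 DOGT1 copies thus had the same length in the authors' counting, which the choice of genes did not use. The smallest reads of Bra005242, the next identifier by number after Bra005241, also gave 1491 bp. The shared length was thus not shown to be particular to the DOGT1 copies. These lengths rest on gene lengths being multiples of 3 bp, as coding lengths are. With steps of 1 bp they would be 497 and 375 bp and the library totals 3 times larger, while the reads of each gene would be unchanged. The median over the 1003 listed genes with exact reads would then be 343 bp (1029 bp at steps of 3 bp).

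On the log2(RPKM + 1) scale the difference of sterile minus fertile was 2.97 for Bra023081, 2.73 for Bra008271 and 2.38 for Bra005241. A gene was counted as higher or lower when this difference was at least 1, a criterion of size with no test behind it. It was applied to the 27940 genes with at least 1 RPKM in at least 1 library, among which all 3 genes were kept, and all 3 were higher. Of the genes kept, 3224 (11.5%) were higher and 4042 (14.5%) lower in sterile buds. Because the 3 genes were chosen on this contrast, nothing is read from their count against that share. The median difference over the genes kept was 0.17, and relative to it each difference is smaller by that amount. With the sterile library scaled by the median ratio 2313 genes were higher and 4460 lower, and scaling by the trimmed mean gave 2191 higher and 4535 lower. The folds of the 3 genes then came to 7.36 and 7.18 for Bra023081, 4.61 and 4.5 for Bra005241, and 5.98 and 5.84 for Bra008271. A difference as large as that of Bra023081 or larger was found in 145 genes kept (0.519%), as large as that of Bra008271 in 191 (0.684%) and as large as that of Bra005241 in 324 (1.16%). These counts describe where the chosen genes lie and support nothing further.

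**Figure D2:**
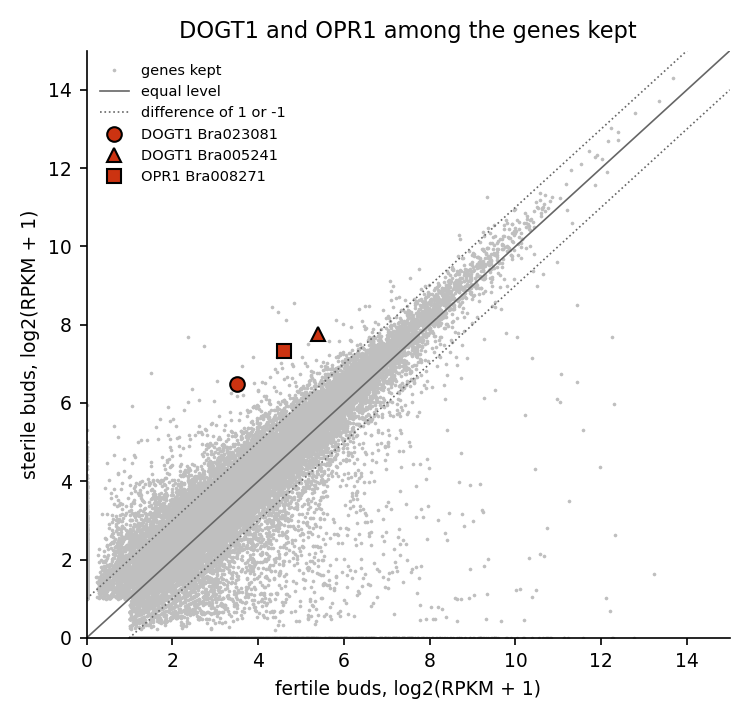
Levels of the 27940 genes kept (grey points) in fertile buds (horizontal) and sterile buds (vertical), both as log2(RPKM + 1), with the line of equal level and dotted lines at a difference of 1. The DOGT1 copies (circle and triangle) and OPR1 (square) lie between 2.38 and 2.97 above the line of equal level.

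In fertile buds the genes ranged from moderately to well expressed, and in sterile buds they were among the more abundant mRNAs. In the fertile library 86.9% of all 41019 genes were at or below the RPKM of Bra005241, 79.5% at or below that of Bra008271 and 67.2% at or below that of Bra023081. In the sterile library the shares were 97.6%, 96.5% and 93.3%. By RPKM, Bra005241 was gene 5376 from the top in fertile and gene 1004 in sterile buds, Bra008271 was gene 8397 and gene 1446, and Bra023081 was gene 13436 and gene 2740. Together the 3 genes held 0.00594% of the summed RPKM of all genes in fertile buds and 0.0371% in sterile buds. RPKM is relative to the library total, and in buds fewer cells of a type and less RNA per cell cannot be told apart.

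Both DOGT1 copies combined had 138 reads in fertile and 713 reads in sterile buds. Their summed level was 51.3 RPKM in fertile against 305 RPKM in sterile buds, 5.94-fold higher in the latter (counting interval 4.95 to 7.18). Bra005241 was the more abundant copy in both libraries. Per length it stood 3.93-fold above Bra023081 in fertile buds (counting interval 2.58 to 6.18) and 2.46-fold above it in sterile buds (counting interval 2.09 to 2.91). Bra023081 supplied 20.3% of the DOGT1 reads in fertile buds (95% Clopper-Pearson interval 13.9% to 28%) and 28.9% in sterile buds (interval 25.6% to 32.4%). The fold of Bra023081 was 1.6 times that of Bra005241, with a counting interval of 1.01 to 2.59 that came close to equality. How reads that match both copies were assigned is not given in the sources used here, so the split between the copies is less certain than their sum. The fold of Bra023081 was 1.23 times that of OPR1 (counting interval 0.727 to 2.11), and the fold of OPR1 was 1.3 times that of Bra005241 (interval 0.884 to 1.92). Neither of these last comparisons separated the folds beyond counting error.

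The authors' deposited table listed 1012 genes, of which 106 were higher in sterile buds, or 0.346% of the 30665 genes above 0 in at least 1 library. All 3 genes were among the 106, which follows from their choice, since symbols were paired with called genes alone and the direction was part of the rule. For Bra023081 the authors' deposited table gave a log2 fold change, fertile over sterile, of -2.84 and a q-value of 2.06e-22. For Bra005241 the authors' deposited table gave -2.17, with a q-value of 2.14e-42. For Bra008271 the authors' deposited table gave -2.54, with a q-value of 1.35e-27. These folds are smaller than the RPKM ratios because the authors applied a further scaling of 0.24 on the log2 scale. Each of the 3 genes ranked higher in the 106 by its level in sterile buds than by its fold. By RPKM in sterile buds Bra005241 was gene 9, Bra008271 gene 13 and Bra023081 gene 31 of the 106, whose median was 53.5 RPKM. By fold in the authors' deposited table they were genes 76, 59 and 50 of the 106. The RPKM ratio of the 100 genes above 0 in both libraries ranged from 4.03 to 74.8, with a median of 6.9.

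The zeatin pathway of the authors' table held 3 called genes, namely both DOGT1 copies and Bra035640 (CKX3), which went the opposite way. DOGT1 was chosen as higher, and 211 of all 225 genes paired with an Arabidopsis code were lower. Nothing particular to this pathway is therefore read from the contrast. CKX3 is a cytokinin oxidase, which breaks cytokinins down irreversibly. Bra035640 had 31.3 RPKM from 88 reads in fertile buds and 4.1 RPKM from 10 reads in sterile buds. It was 7.65-fold lower in sterile buds (counting interval 3.97 to 16.5), and the authors' deposited table gave it a q-value of 3.84e-08. In fertile buds Bra035640 lay between the DOGT1 copies in RPKM, and in sterile buds below both. The pathway did not pass the enrichment test in the authors' deposited table, where 2 of its 22 Arabidopsis genes were called (p-value 0.168, corrected 1).

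OPR1, chosen as higher, likewise differed in direction from the other called genes of its pathway, both of them copies of SDP1. The levels of pathway genes that were not called were not analysed here. Nothing particular to the pathway is therefore read from this contrast either. Alpha-linolenic acid metabolism held 3 called genes, Bra008271 and 2 copies of SDP1, a lipase that releases fatty acids from storage oil in Arabidopsis seeds. Bra005789 (SDP1) had 18 RPKM from 74 reads in fertile and 2.52 RPKM from 9 reads in sterile buds, 7.15-fold lower (counting interval 3.57 to 16.2). Bra028805 (SDP1) had 12.8 RPKM from 56 reads in fertile and 1.58 RPKM from 6 reads in sterile buds, 8.11-fold lower (counting interval 3.5 to 23). Both SDP1 copies thus fell to low levels in the library in which OPR1 was high. The authors' deposited table counted 2 called genes of 31 Arabidopsis genes in the pathway (p-value 0.281, corrected 1). The broad row of metabolic pathways listed 71 called genes, OPR1 included, of which 9 were higher and 62 lower in sterile buds, with a median difference of -3.95 on the log2(RPKM + 1) scale. Of all 225 genes paired with an Arabidopsis code, 14 (6.22%) were higher and 211 lower, with a median of -5.12.

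Lists of hormone genes, given as Arabidopsis codes, had few members because codes were paired with called genes alone. Of 18 codes for jasmonate synthesis and modification, 2 were paired, with 3 genes, of which 1 was higher (OPR1) and 2 were lower. Of all 225 genes paired with a code 211 were lower, and OPR1 was chosen as higher. Nothing particular to jasmonate is therefore read from these counts. The lower ones were the copies of JAR1, the enzyme that joins jasmonate to isoleucine and so makes the active hormone. Bra039284 (JAR1) had 42.5 RPKM from 132 reads in fertile and 7.41 RPKM from 20 reads in sterile buds, 5.74-fold lower (counting interval 3.57 to 9.7). Bra000421 (JAR1) had 24.5 RPKM from 81 reads in fertile and 4.88 RPKM from 14 reads in sterile buds, 5.03-fold lower (counting interval 2.83 to 9.61). In fertile buds the JAR1 copies and OPR1 had levels within a range of 23.2 to 42.5 RPKM, whereas in sterile buds OPR1 stood at 159 RPKM and the JAR1 copies at 4.88 and 7.41 RPKM. Of 19 codes for cytokinin metabolism 2 were paired, those of DOGT1 and CKX3. Of 10 codes for brassinosteroid metabolism and of 7 for UGT73C glucosyltransferases, only that of DOGT1 was paired. The other codes of these lists were paired with no gene, and their levels were not analysed here.

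**Figure D3:**
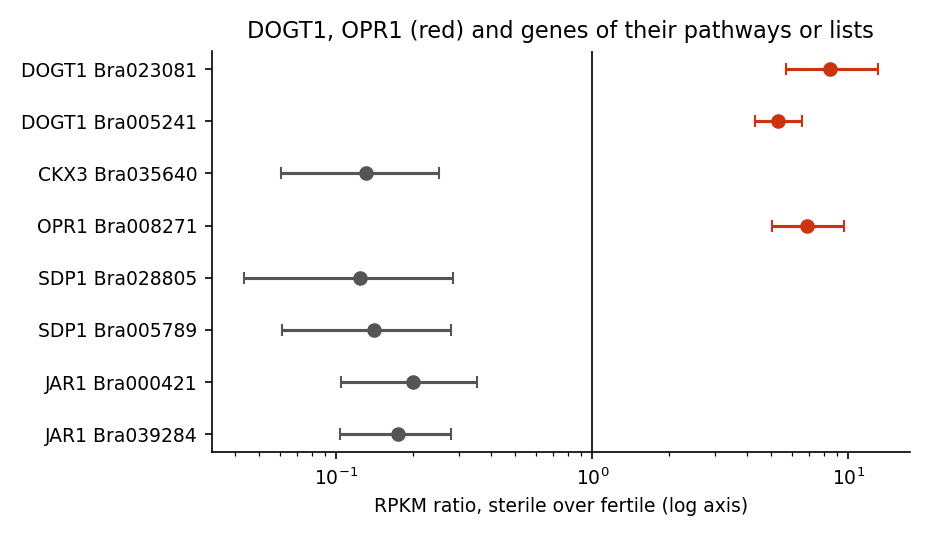
RPKM ratio of sterile over fertile buds on a log axis for DOGT1 and OPR1 (red) and for the genes of their pathways or hormone lists (grey), with 95% Clopper-Pearson counting intervals as bars and a vertical line at equal level. The red genes have ratios from 5.3 to 8.46, while CKX3 and the SDP1 and JAR1 copies are from 5.03-fold to 8.11-fold lower in sterile buds.

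Markers of late pollen were set beside the labels of the libraries. Codes could be paired with called genes only, and 211 of the 225 paired genes had the lower level in the sterile library. The marker list was also drawn up when earlier results of these data were known. The direction of the markers is therefore a description and no independent check of the labels. The 11 genes paired with PPME1, AT59, PGA4, HA9 or CPK24 had 12.1 to 959 RPKM in fertile buds, 10 of them had 0 reads in sterile buds, and the highest value there was 0.463 RPKM. Their summed level was 2430 RPKM in fertile buds. The presence of late pollen thus moved with the label, and its part in the levels of DOGT1 and OPR1 was not tested. Among the 11 marker genes 0 were higher in sterile buds, against 14 (6.22%) of the 225 genes paired with a code. The ribosomal RNA features also moved with the label, at a summed 6708 RPKM in fertile against 831 RPKM in sterile buds, and their part in the levels of DOGT1 and OPR1 was not tested.

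The named genes most like each gene in pattern were found by the distance in log2(RPKM + 1) over the 2 libraries, among the other 222 genes paired with a code. Of these 222 genes 11 were higher in sterile buds, so the choice was small. Nearest to Bra005241 was Bra012889 (CML41), a calmodulin-like protein, at a distance of 0.651, with 62.5 RPKM in fertile against 258 RPKM in sterile buds. Next came Bra029933 (PRXCB), a peroxidase, at 0.814, with 24.3 and 279 RPKM, and then Bra038031 (SERAT2;1) at 1.62. Nearest to Bra008271 was Bra038031 (SERAT2;1), whose Arabidopsis counterpart acetylates serine on the way to cysteine, at 0.733, with 13.7 RPKM in fertile against 144 RPKM in sterile buds. PRXCB followed at 0.809 and Bra021915 (AT2G34480), listed by the authors under ribosome, at 0.938. Nearest to Bra023081 was Bra039707 (AT4G14930), listed under nicotinate, pyrimidine and purine metabolism, at 0.736, with 14.4 and 58 RPKM. SERAT2;1 followed at 0.79 and Bra021915 at 0.856. Between the genes themselves the distance was 0.909 for Bra005241 and Bra008271, 1.37 for Bra023081 and Bra008271, and 2.28 for the 2 DOGT1 copies. In level, therefore, OPR1 was nearer to either DOGT1 copy than these copies were to each other.

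In Arabidopsis the UGT73C genes lie in a tandem cluster, and OPR1 lies beside OPR2. The 5 identifiers before and the 5 after each gene were read by number alone, and whether they adjoin in the genome was not analysed here. Of these 30 identifiers 12 were at 0 in both libraries and 15 passed the filter. Of those 15, 6 were higher and 2 lower by the size rule. Over all genes kept the shares were 11.5% higher and 14.5% lower. Of the 6 higher ones, 3 were at 0 in fertile buds with minimum reads of 1 to 5 in sterile buds, and nothing particular to these identifiers is read from the count. The reads of these identifiers are minima except for Bra008267. Around Bra005241, 3 of the 7 that passed the filter were higher, all 3 numbered after it and all at low level. Bra005242 went from 0.372 RPKM in fertile to 2.99 RPKM in sterile buds (1 and 7 reads), Bra005245 had 0 and 8.57 RPKM (0 and 5 reads), and Bra005246 had 0.745 and 5.57 RPKM (2 and 13 reads). The sterile levels of these 3 lay far below the 217 RPKM of Bra005241. Around Bra023081, Bra023083 had 6.78 RPKM from 11 reads in fertile and 28.4 RPKM from 40 reads in sterile buds, 4.18-fold higher (counting interval 2.11 to 9.04), and Bra023085 rested on 1 read in the sterile library. Also near Bra023081 in number, Bra023084 was at 309 RPKM in fertile against 204 RPKM in sterile buds, and Bra023077 at 30.1 and 32.4 RPKM, and neither passed the size rule. Around Bra008271, Bra008269 was higher on 1 read and Bra008273 lower on 1 read. Bra008267 had 126 RPKM from 145 reads in fertile and 19 RPKM from 19 reads in sterile buds, 6.63-fold lower (counting interval 4.1 to 11.3), and it was the 1 identifier of the 30 in the authors' deposited table.

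**Figure D4:**
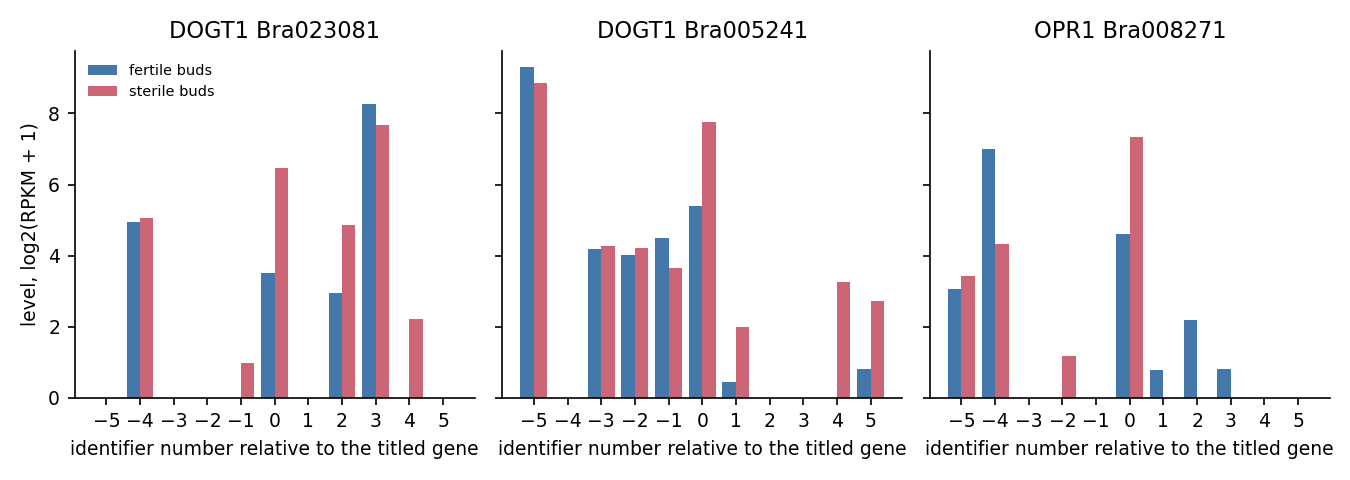
Level as log2(RPKM + 1) in fertile (blue) and sterile (red) buds for each gene (position 0) and the 5 identifiers before and after it by number, 1 panel per gene. At position 0 the red bar stands 2.38 to 2.97 above the blue bar, and of the 30 other identifiers 12 have no bar because they were at 0 in both libraries.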

How the data were processed

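The members and gene lists were chosen with earlier results of these data known. Alignment used TopHat, per the submitters' processing notes. No version, genome build, annotation, read counter or test name is given in the sources used here. Deposited by the authors were RPKM values per feature for 1 library per group (41019 genes, 10338 ribosomal RNA features), and a comparison holding log2 fold changes with their p-values and q-values. Their pathway table gives counts of Arabidopsis genes and p-values by the authors.

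Whole reads were recovered from the deposited values. In the 475 called genes at 0 in sterile buds, and the 6 at 0 in fertile buds, the authors' fold was proportional to the reads (tolerance 0.0001). With lengths in steps of 3 bp the library totals were 1803154 reads in fertile and 1567647 in sterile buds, so 1 read in 1 kb was worth 0.555 and 0.638 RPKM. In 472 of these genes the squared normal deviate of the authors' p-value, divided by the squared log2 RPKM ratio and the geometric mean of the scaled reads, was constant within 0.00346%. Applied to 522 called genes above 0 in both libraries, it gave whole multiples of the smallest reads in 522 (tolerance 1%), with a multiple of 1 in 430. Reads of genes outside the authors' table are minima. Reads after PCR may copy one molecule, and the 95% intervals hold counting error alone.

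Genes with at least 1 RPKM in a library were kept, with a pseudocount of 1. Named genes were the members, genes of pathway rows holding a member (individually where a row had 3 genes), listed codes paired with a gene, the 3 named genes nearest to each member, and the 5 identifiers on each side. Settings tried were the pseudocount, filter, scaling and length step. Recovery and size rule were tested on simulated data. Python 3.11.15, numpy 2.4.6, pandas 2.3.3 and scipy 1.17.1 were used. The RefSeq table (assembly CAAS_Brap_v3.01) matched 0 of the 3 identifiers, and coordinates were not used here.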

Additional observations from a re-analysis of the deposited data

How the results depend on the processing

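The log2 differences of Bra023081, Bra005241 and Bra008271 kept their direction and stayed within their counting intervals under pseudocounts of 0.1 and 0.01 and under scaling by the median ratio or the trimmed mean. Their read ratios did so under both scalings, under the scaling of the authors' table (chosen after seeing the data) and with length steps of 1 bp. For the DOGT1 shares only the step of 1 bp was tried. With shorter lengths and larger library totals, that step would leave the reads of each gene unchanged. The recomputation instead took all reads as 3 times larger, which narrowed the intervals. For the ratio of Bra023081 the interval became 6.73 to 10.8, against 5.69 to 13. For its share in fertile buds it became 16.5% to 24.5%, against 13.9% to 28%. In neither case could the shares or the read ratios themselves move. Of 32 recomputed values, 31 stayed within their interval or within 1.5 times. The 32 include the values at steps of 1 bp, which could not move. The exception was the number of genes higher in sterile buds, 2011 of 20366 at a filter of at least 5 RPKM, against 3224, where fewer genes were tested. No paired analysis was possible because each group had 1 library, and no replicate could be left out. Depth limited Bra023081 most, with 28 fertile reads.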
